A study of Mus musculus with 6 samples.

Results

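The genes described here govern or read out the passage between an epithelial and a mesenchymal state. They are the zinc finger factors Snai1, Snai2, Zeb1 and Zeb2, the helix-loop-helix factor Twist1, the cadherins Cdh1, Cdh2 and Cdh11, the epithelial surface protein Epcam and the intermediate filament protein Vim. They were chosen by name, as array features annotated with exactly 1 gene symbol, and 9 of the 10 could be read in this way among 30702 genes measured. Zeb2 could not, because its feature is also annotated with the microRNA gene Mir5129. The samples were mouse embryonic stem cells of a line labelled iRunx, grown as embryoid bodies to day 4 of differentiation, from which Flk1-positive, PDGFRα-negative cells were sorted. In 3 arrays the sorted cells carried a retrovirus that expresses the homeodomain protein HOXB4 together with the red fluorescent protein tdTomato, and 3 control arrays came from sorted cells without it. All 6 share the iRunx background, the day and the sort, and the sources used here do not say whether a Runx transgene was induced or whether the controls carried an empty virus. Replicates are called independent experiments in the series text, and they come from 1 cell line.

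During gastrulation, epithelial cells of the epiblast leave their layer through the primitive streak and become mesoderm, a textbook epithelial to mesenchymal transition. Snail and Zeb proteins repress Cdh1, which encodes E-cadherin, by binding a short DNA element called an E-box, and cells commonly gain Cdh2 (N-cadherin) and Vim (vimentin) as they lose Cdh1 and Epcam. Flk1-positive mesoderm, the source of endothelium and blood, has passed through this step. Members of the microRNA-200 family bind the transcripts of Zeb1 and Zeb2 and hold them down.

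Sequences of the kind through which these factors act are shown for some of the members and regulators, from RefSeq for mouse build GRCm38.p6. The window ran from 250 bases before to 50 bases after the gene's start. Windows of Snai1, Twist1, Epcam and Vim, 1 each, and of Zeb2, 4 in all, were searched. Those of Snai2, Zeb1, Cdh1, Cdh2 and Cdh11 were not searched. The searched element was CACCTG on either strand, the E-box form bound by Snail and Zeb proteins, which appears as CACCTG or CAGGTG on the printed strand. It lies within the looser E-box pattern CANNTG. Of 32851 windows of the same length in the table, 20.2% held CACCTG or CAGGTG and 72.3% held CANNTG. The Snai1 window (chr2:167537945-167538244, plus strand) held 1 copy, at position -126 from the start. The Epcam window (chr17:87635729-87636028, plus strand) held 2 copies, at positions -187 and -19, and 2.88% of all windows held 2 or more. Twist1, Vim and Zeb2 held neither pattern in theirs. Capitals mark the element in both sequences below, the only searched windows that held it. Epcam is a surface readout, and Snai1 encodes a factor that binds the element.
Snai1 promoter: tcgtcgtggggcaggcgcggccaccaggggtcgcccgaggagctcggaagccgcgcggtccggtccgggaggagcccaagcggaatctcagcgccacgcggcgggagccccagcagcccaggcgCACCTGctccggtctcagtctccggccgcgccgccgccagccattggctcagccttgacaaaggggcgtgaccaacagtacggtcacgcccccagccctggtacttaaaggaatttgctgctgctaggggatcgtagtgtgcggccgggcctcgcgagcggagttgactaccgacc
Epcam promoter: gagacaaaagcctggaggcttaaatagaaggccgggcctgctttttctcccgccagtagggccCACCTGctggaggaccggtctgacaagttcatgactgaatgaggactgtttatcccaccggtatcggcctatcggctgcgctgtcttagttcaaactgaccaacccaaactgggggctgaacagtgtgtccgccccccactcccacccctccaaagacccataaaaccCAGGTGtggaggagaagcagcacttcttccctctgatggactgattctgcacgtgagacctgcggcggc

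The mature 3' arms of the microRNA-200 family are shown because they act on Zeb1 and Zeb2, with the seed, bases 2 to 8, in capitals. They fall into 2 seed groups that differ within the seed, AACACUG for miR-141 and miR-200a and AAUACUG for miR-200b, miR-200c and miR-429. All come from chromosome 4 or chromosome 6 on the minus strand.
mmu-miR-141-3p: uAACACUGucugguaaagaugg
mmu-miR-200a-3p: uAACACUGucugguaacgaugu
mmu-miR-200b-3p: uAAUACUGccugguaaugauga
mmu-miR-200c-3p: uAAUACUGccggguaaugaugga
mmu-miR-429-3p: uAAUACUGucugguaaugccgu

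With limma and Benjamini-Hochberg adjustment over all genes, 0 of the 9 members were called at an adjusted p of 0.05, against a background of 0% of 30702 genes. At an unadjusted p of 0.05 the count was 2513 genes (8.19%), 685 higher and 1828 lower with HOXB4, and 3 members, Snai2, Twist1 and Cdh11, were among those lower. That lean was not seen with cyclic loess between arrays, which gave 1178 higher and 1090 lower. Median gene levels were 5.10 to 5.22 on the 6 arrays, in log2 units of the deposited summaries, and the 23 background features had medians of 3.06 to 3.15. Of the 9 members, 6 differed downwards and 3 upwards, with a median difference of -0.44 beside -0.04 over all genes, and 60.0% of all genes differed downwards. The median of the members was -0.80 without HOXB4 replicate 2. Kdr, which encodes the sorting marker Flk1, lay between 13.7 and 14.3 on all 6 arrays. In these bulk samples fewer cells of a type and less RNA per cell cannot be told apart, and the number of arrays limits every value.

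Snai2 and Twist1 were the members whose groups did not overlap, both lower with HOXB4. Across all genes 10.2% lay lower without overlap and 3.24% higher, or 6.22% and 6.04% with cyclic loess, where Snai2 and Twist1 again did not overlap. Snai2, the Snail paralog also called Slug, read 8.38, 7.63 and 6.95 in the 3 controls, here and throughout in replicate order, and 6.64, 6.74 and 6.48 on the 3 HOXB4 arrays. The controls were spread widely and the HOXB4 arrays lay close together, all below the lowest control. The means were 7.66 ± 0.72 in controls and 6.62 ± 0.13 with HOXB4 (SD, n = 3 each), a log2 difference of -1.03 (SE 0.33, 95% interval -1.82 to -0.24), or 2.05-fold, with an adjusted p of 0.605 in limma. Without control 1, the highest array, it was -0.67.

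Twist1, a mesodermal helix-loop-helix factor, read 6.23, 5.51 and 5.42 in the 3 controls and 4.85, 5.13 and 4.99 on the 3 HOXB4 arrays. Every HOXB4 value lay below every control, and control 1 was the highest. The means were 5.72 ± 0.45 and 4.99 ± 0.14 (SD, n = 3 each), and the difference was -0.73 (SE 0.22, 95% interval -1.26 to -0.21; adjusted p = 0.605 in limma), or -0.48 without control 1. Only 3 of its 6 values exceeded the 95th percentile of the background features on their array, so its level is close to what the array can read.

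**Figure D1:**
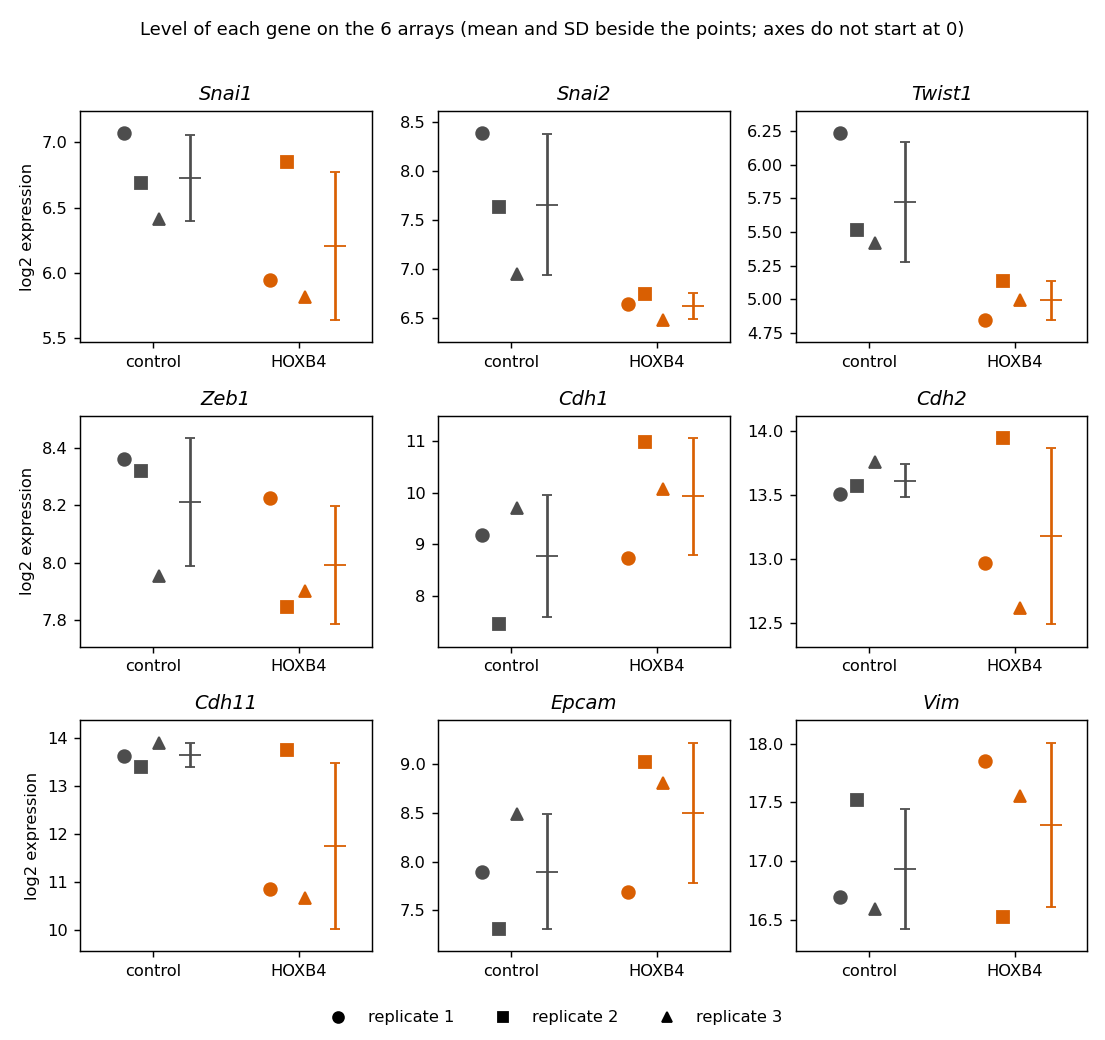
Level of each of the 9 genes in log2 units (vertical axes, which differ between panels) on 3 control and 3 HOXB4 arrays, marked by replicate, with the group mean and SD beside the points. Snai2 and Twist1 are lower on all 3 HOXB4 arrays, Cdh11 is lower on HOXB4 replicates 1 and 3 only, and Cdh1 peaks at 10.99 on HOXB4 replicate 2.

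Snai1, the founding Snail factor of gastrulation, did not separate the groups. It read 7.07, 6.69 and 6.42 in the 3 controls and 5.94, 6.85 and 5.82 on the 3 HOXB4 arrays. HOXB4 replicates 1 and 3 lay below all controls, while replicate 2 lay among them. The difference was -0.52 (SE 0.30, 95% interval -1.24 to 0.20; adjusted p = 0.652 in limma), and it was -0.84 without HOXB4 replicate 2 and -0.33 without HOXB4 replicate 3.

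Zeb1 differed least among the factors. It read 8.36, 8.32 and 7.95 in the 3 controls and 8.23, 7.84 and 7.90 on the 3 HOXB4 arrays, so the groups overlapped. The difference of -0.22 (SE 0.16) had a 95% interval of -0.59 to 0.15, and leaving out 1 array gave -0.35 to -0.15. The feature shared by Zeb2 and Mir5129 averaged 8.09 ± 0.20 in controls and 8.32 ± 0.40 with HOXB4 (SD, n = 3 each), with its highest value, 8.75, in HOXB4 replicate 1, and it is not read as Zeb2 alone.

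Features for the precursors of miR-200a, miR-200b, miR-200c and miR-141, whose mature arms are printed above, were between 3.22 and 4.84 and did not exceed the 95th percentile of the background features on any array. Precursor features do not measure the mature strand. Mir429 has no feature of its own.

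Cdh11, the cadherin of mesenchymal cells, had the widest difference among the members, and it came from 2 of the 3 HOXB4 arrays. The 3 controls read 13.63, 13.39 and 13.90, and the 3 HOXB4 arrays read 10.86, 13.74 and 10.66. Replicates 1 and 3 lay far below every control, and replicate 2 lay between the controls. With all arrays the difference was -1.89 (SE 0.78, 95% interval -3.74 to -0.04; adjusted p = 0.605 in limma), or 3.70-fold. Without HOXB4 replicate 2, with 2 HOXB4 arrays left, it was -2.88 (SE 0.17), or 7.36-fold, with an adjusted p of 0.0131 in limma. Leaving out the HOXB4 array that lay between the controls was bound to widen the difference, so this call is not separate support. In that fit 46 genes (0.150% of all) were called, 43 of them lower (0.140%), and Cdh11 was the 1 member among them.

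Cdh2, which encodes N-cadherin, split the arrays the same way over a smaller range. It read 13.51, 13.57 and 13.76 in the 3 controls and 12.97, 13.95 and 12.62 on the 3 HOXB4 arrays. The controls were tight, HOXB4 replicates 1 and 3 lay below them and replicate 2 lay above them. The difference was -0.44 (SE 0.32, 95% interval -1.20 to 0.33; adjusted p = 0.709 in limma), against -0.82 without HOXB4 replicate 2 (adjusted p = 0.127) and -0.16 without HOXB4 replicate 3.

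Vim ordered the arrays in nearly the reverse way. It read 16.69, 17.52 and 16.59 in the 3 controls and 17.86, 16.52 and 17.55 on the 3 HOXB4 arrays. HOXB4 replicate 2 was lowest, and control 2 lay close to HOXB4 replicate 3. The difference was 0.38 (SE 0.39, 95% interval -0.56 to 1.31; adjusted p = 0.791 in limma), and it ran from 0.10 without HOXB4 replicate 1 to 0.77 without HOXB4 replicate 2.

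Cdh1 and Epcam, the epithelial readouts, averaged higher with HOXB4, with overlap between groups. Cdh1 read 9.19, 7.44 and 9.70 in the 3 controls and 8.73, 10.99 and 10.07 on the 3 HOXB4 arrays. Control 2 was lowest and HOXB4 replicate 2 highest, and HOXB4 replicate 1 lay within the controls. Its difference was 1.15 (SE 0.73, 95% interval -0.59 to 2.89; adjusted p = 0.675 in limma), from 0.49 without control 2 to 1.75 without HOXB4 replicate 1, and 0.62 without HOXB4 replicate 2. Epcam, whose promoter is printed above, read 7.90, 7.31 and 8.49 in the 3 controls and 7.69, 9.02 and 8.81 on the 3 HOXB4 arrays. The order of its arrays matched that of Cdh1, with control 2 lowest and HOXB4 replicate 2 highest. The difference was 0.61 (SE 0.42, 95% interval -0.39 to 1.60; adjusted p = 0.692 in limma), from 0.31 without control 2 to 1.02 without HOXB4 replicate 1, and 0.35 without HOXB4 replicate 2.

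**Figure D2:**
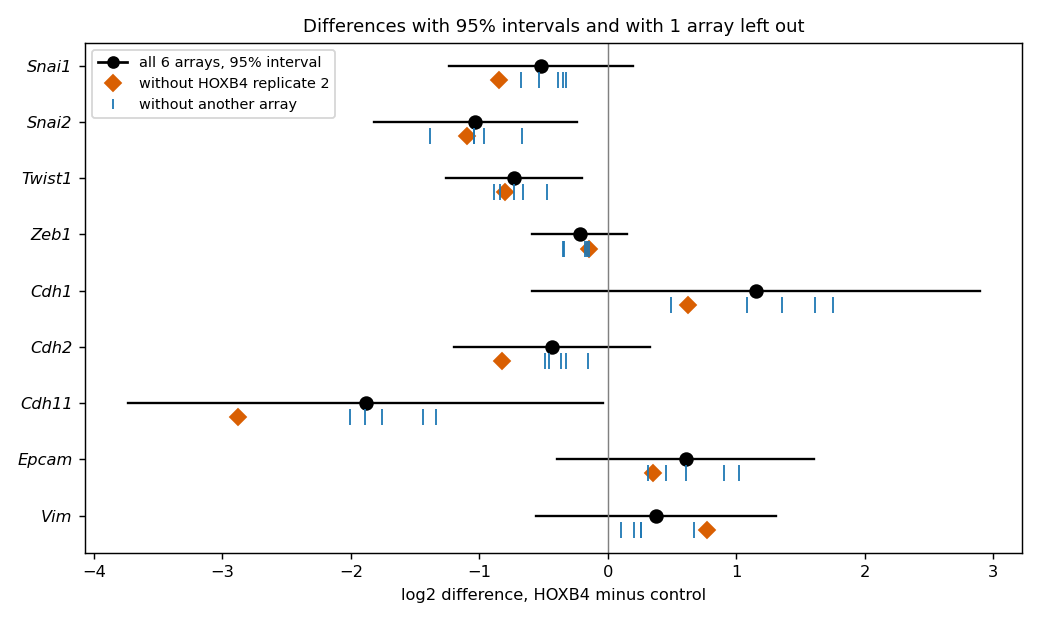
Log2 difference between HOXB4 and control arrays for each gene (horizontal axis), as a black point with its 95% interval from limma, and below it the difference with each array left out. All differences keep their sign, and that of Cdh11 goes from -1.89 to -2.88 without HOXB4 replicate 2.

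Set side by side, the members showed 3 array patterns, described here and not tested. Snai2 and Twist1 were lower on all 3 HOXB4 arrays. Snai1, Cdh2 and Cdh11 deviated from the control mean by -0.78, -0.65 and -2.78 in HOXB4 replicate 1 and by -0.91, -0.99 and -2.98 in replicate 3, while replicate 2 deviated by 0.13, 0.34 and 0.10. Cdh1 and Epcam deviated by 2.21 and 1.12 in HOXB4 replicate 2, by 1.29 and 0.91 in replicate 3 and by -0.04 and -0.21 in replicate 1. Zeb1 and Vim followed none of the 3. Without HOXB4 replicate 2, 5 members lay lower without overlap, Snai1, Snai2, Twist1, Cdh2 and Cdh11, and Vim lay higher; the shares over all genes were then 21.4% and 10.5%. Without HOXB4 replicate 1, Snai2, Twist1 and Zeb1 lay lower without overlap and Cdh1 and Epcam higher, where the shares over all genes were 13.7% and 6.77%.

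Mean levels of marker genes of cell types that the sorted fraction could hold were set beside these patterns and beside Vim. The mean level of 10 endothelial genes was 8.68, 10.02 and 8.61 in the 3 controls and 10.94, 8.42 and 9.66 on the 3 HOXB4 arrays, highest on the 3 arrays where Vim was highest, and Emcn alone of the list stayed at background. Means of 10 cardiac mesoderm genes were 7.19 to 7.76 in controls and 6.17, 7.19 and 6.17 on the 3 HOXB4 arrays, and those of 8 smooth muscle and pericyte genes were 7.57 to 8.20 in controls and 6.82, 8.13 and 7.03 with HOXB4. Both means were low where Cdh11 and Cdh2 were low. Tbx5 of the first list and Myh11 and Cspg4 of the second stayed at background on every array. Single genes differed: on the 3 HOXB4 arrays Rgs5 read 6.99, 10.98 and 6.70 and Hand1 read 8.98, 12.83 and 8.61. Des read 7.53, 6.87 and 7.94 there, and Tnnt2 read 7.84, 7.22 and 7.74 against 7.22 to 7.42 in controls. Tagln on HOXB4 replicates 1 and 3 lay within the controls. The 10 pluripotency genes averaged 6.92 to 7.52 in controls and 7.38, 8.03 and 8.08 on the 3 HOXB4 arrays, with Esrrb alone at background. Their mean was lowest in control 2, as were Cdh1 and Epcam, but the genes differed among themselves. Of the controls, Pou5f1, Nanog, Tdgf1, Dppa5a and Utf1 were lowest in control 2, while Dppa4, Zfp42, Sox2 and Esrrb were highest there. Dppa4 read 7.15, 9.45 and 7.82 in controls and 10.61, 8.18 and 10.86 with HOXB4, unlike Cdh1. The part of these cell types in the values of the members was not tested.

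The mean of the PDGFRA-lineage and paraxial mesoderm list was low on HOXB4 replicates 1 and 3 as well, though its genes differed, and the blood list was mixed. The 9 measured genes of PDGFRA-lineage and paraxial mesoderm, which include Twist1, averaged 5.72, 5.67 and 5.54 in the 3 controls and 5.17, 5.49 and 5.21 on the 3 HOXB4 arrays, with Foxc2, Meox1, Pax3 and Prrx1 at background on all of them. Foxf1 of this list differed by -2.16 (SE 0.69) without overlap, with 8.05 and 7.81 in HOXB4 replicates 1 and 3 against 10.58 in replicate 2. The 9 blood genes averaged 6.90, 6.33 and 7.20 in the 3 controls and 6.45, 7.17 and 6.20 on the 3 HOXB4 arrays. Control 2 was low too, below HOXB4 replicate 1, and 3 of the genes stayed at background. Hbb-bh1 read 12.63, 10.74 and 13.52 in controls and 10.02, 13.57 and 9.84 with HOXB4. Of the 9 genes, 7 differed downwards and 2 upwards, Itga2b by 0.50 (SE 0.34) and Spi1 by 0.27 (SE 0.15).

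Endoderm and ectoderm lists gave no such split in their means. Definitive endoderm genes averaged 6.07 to 6.28 in controls and 5.99 to 6.38 with HOXB4, highest in HOXB4 replicate 3. Its members differed among themselves, with Foxa2, Foxa1 and Cer1 at background on all arrays, Trh at 12.39 in HOXB4 replicate 3 against 9.39 to 9.84 in controls, and Cxcr4 lower without overlap (-2.38, SE 0.82). Visceral endoderm genes averaged 4.22 to 4.55 in controls and 4.26 to 4.32 with HOXB4, with 8 of 9 at background on every array, Afp and Ttr among them. Ectoderm genes averaged 4.77 to 4.97 and 4.70 to 4.94, with 4 of 8 at background. The part of these cell types in the values of the members was not tested either.

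**Figure D3:**
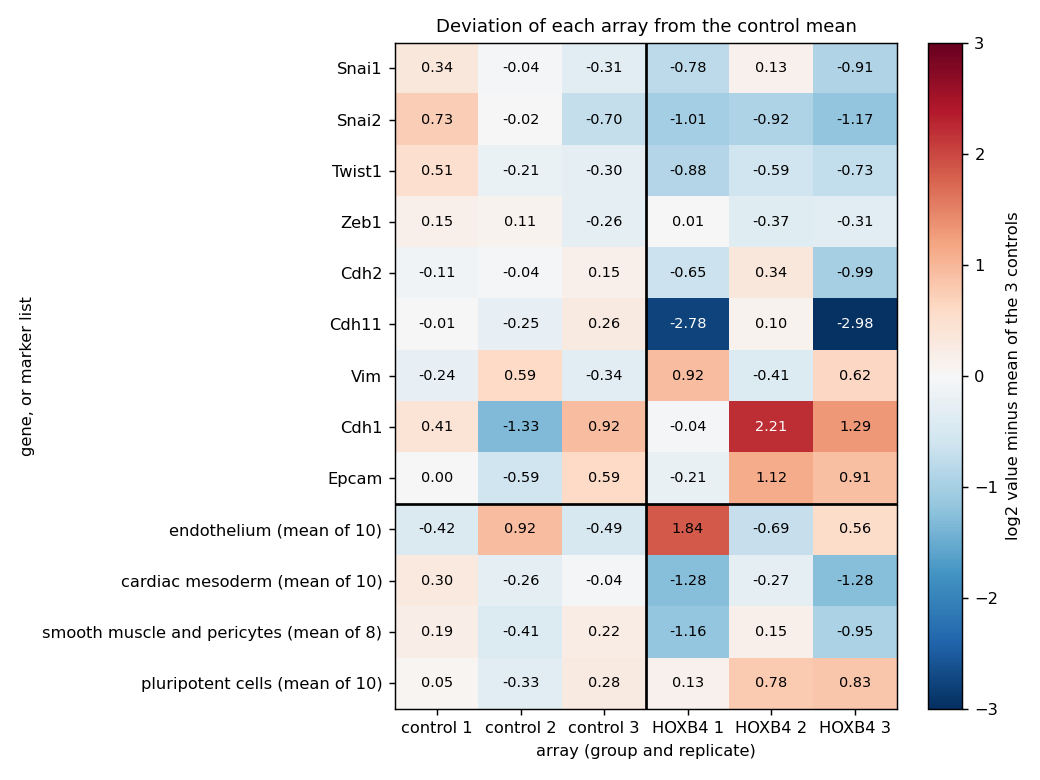
Each array's log2 value minus the mean of the 3 controls (colour and printed number), for the 9 genes above the line and the mean level of 4 marker lists below it. Cdh11 is at -2.78 and -2.98 in HOXB4 replicates 1 and 3 against 0.10 in replicate 2, and the cardiac and smooth muscle means are low on the same arrays.

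Genes whose 6 values followed those of Cdh11 or Cdh1 most closely, the members spanning at least 2 log2 units, were found by the root mean square distance between values centred on each gene's mean, among 18319 named genes. For Cdh11 they were Nkd1, an inhibitor of Wnt signalling, at a distance of 0.13 log2 units, Tgfb2, a TGF-beta ligand, at 0.15, and Prdm6, a factor of smooth muscle, at 0.16. Tgfb2 read 12.92, 12.45 and 12.83 in controls and 9.95, 12.95 and 9.53 on the 3 HOXB4 arrays, repeating the split of Cdh11. For Cdh1 they were the pluripotency factor Nanog at 0.39, Hsp25-ps1, a heat shock pseudogene, at 0.49 and the claudin gene Cldn6 at 0.50. Nanog read 7.96, 6.90 and 8.63 in controls and 7.02, 9.61 and 8.45 on the 3 HOXB4 arrays, lowest in control 2 and highest in HOXB4 replicate 2, as was Cdh1. All share the same 6 arrays, and with so few arrays close patterns occur among many genes.

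Other genes of the transition were followed in 9 lists, in which 0 of 166 measured genes outside the members passed the test. At an unadjusted p of 0.05, 11 were higher (background 2.23%) and 10 lower (background 5.95%). Among 15 other transition factors, 3 were lower at that level and 0 higher, and the median difference was -0.08. Prrx2, a mesenchymal homeobox gene, differed by -0.38 (SE 0.12) without overlap, Klf8 by -0.68 (SE 0.25) and Twist2, the paralog of Twist1, by -0.67 (SE 0.27). In Twist2, HOXB4 replicates 1 and 3 read 4.82 and 4.69 against 5.51 to 5.96 in controls, and replicate 2 read 5.67 among them. Snai3 stayed at background on all arrays.

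Factors of the epithelial state gave no shared direction, with 8 of 17 above 0 and a median of -0.02 (0.02 with cyclic loess). Esrp1, a splicing regulator of epithelial cells, read 5.70, 5.33 and 6.09 in the 3 controls and 6.21, 6.82 and 6.92 on the 3 HOXB4 arrays. All 3 HOXB4 values lay above the controls, and the difference was 0.94 (SE 0.25). Cdx2, a caudal homeobox factor, differed by -1.71 (SE 0.48) without overlap, and Tfap2c by -0.43 (SE 0.22), or -0.21 without control 1. Among 19 cofactors and stability factors of Snail and Zeb the median was -0.03 (0.04 with cyclic loess). The F-box gene Fbxo11 differed by 0.49 (SE 0.20), the Snail kinase gene Gsk3b by 0.40 (SE 0.18) and Fbxl14, which encodes a ligase subunit for Snail proteins, by -0.41 (SE 0.21), or -0.64 without HOXB4 replicate 2 and -0.21 without HOXB4 replicate 3. All 3 had HOXB4 replicate 2 among the controls.

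The other cadherins, 19 in all, had 10 genes at background on every array and a median of -0.05. Cdh3 (P-cadherin) differed by -0.61 (SE 0.21), with the groups overlapping, Cdh15 by -0.14 (SE 0.11) and Cdh13 by -0.22 (SE 0.18). Cdh15 was at background on all arrays and at -0.05 without control 1. Cdh13 exceeded background on 2 arrays, and its difference was -0.41 without HOXB4 replicate 2 and -0.10 without HOXB4 replicate 3. The catenins and cadherin partners had 4 of 13 higher without overlap, 0 lower and a median of 0.19, or 0.29 with cyclic loess. Over all genes 3.24% lay higher without overlap, or 6.04% with cyclic loess. Vcl (vinculin, which links cadherin complexes to actin) read 13.13, 13.46 and 14.00 in controls and 14.37, 14.06 and 14.01 with HOXB4, a difference of 0.62 (SE 0.23). Jup (plakoglobin) differed by 0.27 (SE 0.11) and the junction gene Plekha7 by 0.38 (SE 0.15), and the fourth without overlap was Afdn. The nearest values of the groups differed little, as between 14.00 in control 3 and 14.01 in HOXB4 replicate 3 for Vcl.

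Among 32 epithelial junction and keratin genes, 16 were above and 16 below 0. F11r, a junctional adhesion molecule gene that endothelium also expresses, differed by 1.17 (SE 0.38), the polarity gene Pard6b by -1.07 (SE 0.38) and the tight junction gene Marveld2 by 0.29 (SE 0.10). HOXB4 replicates 1 and 3 read 11.97 and 11.91 for F11r against 9.90 to 10.82 in controls, and replicate 2 read 10.73 within them. The 24 mesenchymal and matrix genes were also evenly divided, 12 and 12. Mmp2, a gelatinase gene, read 11.07, 10.89 and 10.83 in controls and 10.01, 10.22 and 9.53 with HOXB4, lower on all 3 arrays, with a difference of -1.01 (SE 0.18) and an adjusted p of 0.605 in limma. Mmp14 differed by 0.61 (SE 0.20), or 0.38 without control 1, and the integrin gene Itga5 by 0.33 (SE 0.13), or 0.20 without HOXB4 replicate 1, both higher without overlap.

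Of 17 measured genes for signals, a receptor and transcription factors of the primitive streak, 14 lay lower, beside 60.0% of all genes. The streak gene T was listed too but could not be read. The median of the 17 was -0.25, and 0 lay without overlap. That median rested on HOXB4 replicates 1 and 3: it was -0.01 without the former, -0.06 without the latter and -0.55 without HOXB4 replicate 2, and -0.15 with cyclic loess. Msx2, a BMP target, read 11.73, 11.24 and 11.72 in controls and 8.91, 11.57 and 8.06 with HOXB4, the split seen for Cdh11, and differed by -2.05 (SE 0.82). Without HOXB4 replicate 2 it differed by -3.07 (adjusted p = 0.0310 in limma) and Tgfb2 by -2.99 (adjusted p = 0.0143), both called. For both genes that array read close to the controls, so leaving it out was bound to widen the difference. With all arrays Tgfb2 differed by -1.92 (SE 0.84), and without HOXB4 replicate 3 Msx2 was at -1.32. Msx1 differed by -0.57 (SE 0.24), or -0.38 without control 2. Of the 10 microRNA genes, 7 stayed at background on every array, among them Mir200c (-0.31, SE 0.15), which was at -0.15 without control 1. Mir34a, which targets Snai1, differed by 0.40 (SE 0.20), or 0.23 without control 1 and 0.60 without control 3, and Mir30d by 0.20 (SE 0.21), or 0.04 without control 2, 0.09 without HOXB4 replicate 1, and 0.36 and 0.35 without HOXB4 replicate 3 or control 3. Both overlapped between groups.

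**Figure D4:**
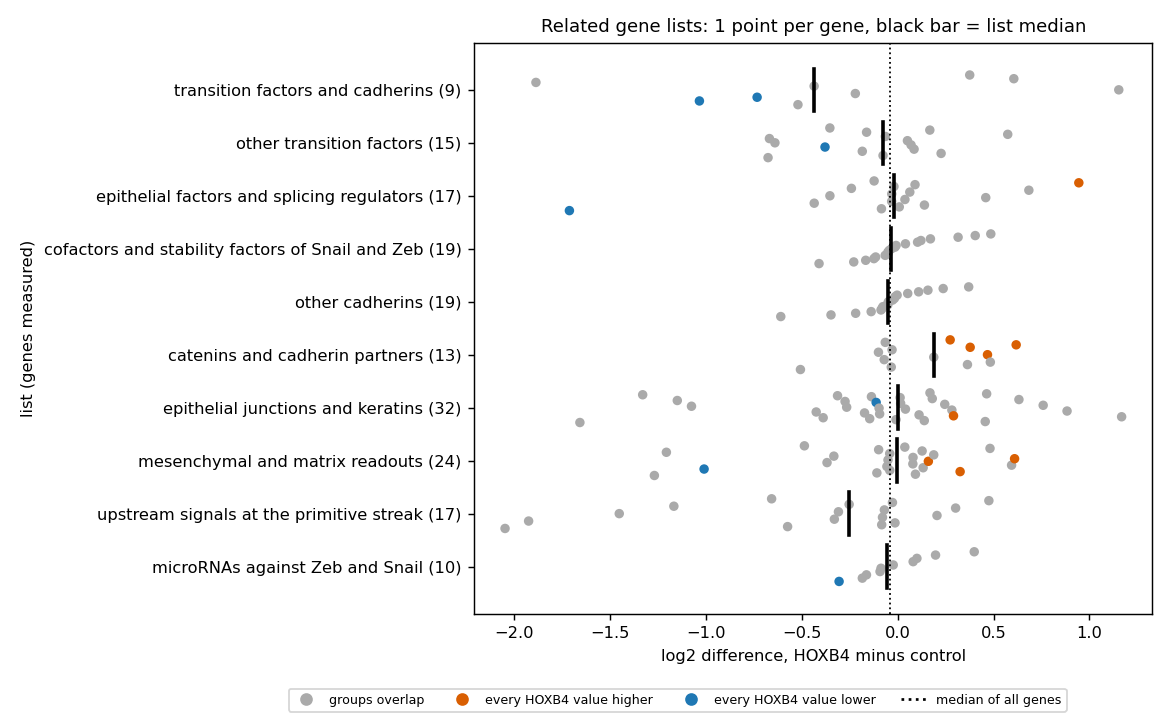
Log2 difference between HOXB4 and control arrays (horizontal axis) for each measured gene of the 9 lists and of the 9 transition factors and cadherins, coloured where the groups do not overlap, with black bars at list medians and a dotted line at the median of all genes, -0.04. The catenin list has 4 genes higher without overlap, and Snai2 and Twist1 are the blue points of the top row.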

How the data were processed

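RNA from 6 samples was hybridised to 1 array each, labelled with the Affymetrix WT PLUS kit per the labels' protocols. The values are log2 expression summaries that the authors made and deposited, with Affymetrix Expression Console and RMA per the submitters' processing notes. The sources used here name no version, setting or genome build. RMA equalises arrays, so a shift of most genes one way would be partly removed. Values reach 19.9, above what a 16-bit scanner gives, so their scale is not that of the scanner. Levels were compared between arrays of a gene. Calls at background, which set a gene against other features, are approximate.

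Of 65956 features, 31258 named 1 gene after symbols were updated through RefSeq, 1492 several and 33206 none. The brightest feature stood for each of 30702 genes. Groups came from sample titles. The HOXB4 arrays were compared with the controls by lmFit and eBayes of limma 3.58.1 (R 4.3.3), two-sided, without a replicate block and with Benjamini-Hochberg adjustment over all genes. The fit was checked on simulated data. A gene is at background where it does not exceed the 95th percentile of 23 background features on any array. That percentile was 5.05 to 5.68 on the 6 arrays, and 14446 of the 30702 genes were at background on all of them. Named were the members, 3 genes per list with the smallest p, and the 3 nearest patterns for members spanning 2 log2 units; Kdr, Afdn, Snai3 and single marker genes were named outside that rule, after their values were seen. Members and lists were chosen with earlier results of these data known. Python 3.11.15 and pandas 2.3.3 made the tables.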

Additional observations from a re-analysis of the deposited data

How the results depend on the processing

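Each array was left out in turn, and 9 other settings were tried: the replicate block, median centring, cyclic loess, a filter on dim features, the mean of a gene's features, a trended and a robust prior, array weights and no moderation. The sign of all 9 member differences was kept in every setting. With 1 array left out, genes called ran from 0 to 46, members called from 0 to 1 and members without overlap from 2 to 6; the 46, the 1 (Cdh11) and the 6 came without HOXB4 replicate 2, and 5 members did not overlap without HOXB4 replicate 1. Adjusted p values over the settings ran from 0.0131 to 0.925 for Cdh11, from 0.298 to 0.925 for Snai2 and from 0.256 to 0.925 for Twist1. Genes at an unadjusted p of 0.05 numbered 2513 with all arrays and 1266 to 4267 with 1 left out. With the replicate number as a block, 0 genes and 0 members were called and 1294 genes had an unadjusted p below 0.05. The labels do not say that a number pairs arrays across groups, so the numbers were not taken to pair them. Deviations from the group means correlated over genes at -0.40, -0.59 and -0.35 for same-numbered arrays. For the other pairs the correlations ran from -0.08 to 0.43. Deviations within a group sum to 0, so these correlations depend on one another and cannot settle whether arrays were paired. Of the single genes and list medians under all settings, 807 values were on the same side of the threshold or within the spread between replicates, 3 became called (Cdh11, Msx2 and Tgfb2, all without HOXB4 replicate 2) and 13 medians moved further than that spread. Twist1 lies close to background, which limits its measurement.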

Other observations

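Keratin and claudin genes of the epithelial list, singled out after their values were seen, did not share one pattern. Krt8, the keratin of simple epithelia, read 14.83, 13.57 and 14.85 in the 3 controls and 12.07, 14.74 and 12.46 on the 3 HOXB4 arrays, and its partner Krt18 read 14.33, 12.64 and 14.00 and then 10.84, 13.98 and 11.18. Both were lowest in HOXB4 replicates 1 and 3, the arrays on which Cdh11 was lowest, with differences of -1.33 (SE 0.72) and -1.66 (SE 0.86). Krt19 read 8.68, 7.30 and 8.94 in controls and 7.49, 9.59 and 7.56 with HOXB4, a difference of -0.09 (SE 0.66). It was lowest in control 2 and highest in HOXB4 replicate 2. The claudin gene Cldn4 read 6.15, 6.04 and 7.40 in controls and 6.84, 8.19 and 7.20 with HOXB4, lowest in control 2 and highest in HOXB4 replicate 2, as were Cdh1 and Epcam, with a difference of 0.88 (SE 0.46). None of these genes was called.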
